A study of Mus musculus with 10 samples.

Results

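The nonclassical (class Ib) MHC class I genes are 10 named genes, H2-Q4, H2-Q6, H2-Q7, H2-T10, H2-T22, H2-T23, H2-T24, H2-M3, Mr1 and Cd1d1, taken by symbol from the 36009 genes of the deposited table. They were measured by polyA RNA sequencing (150 bp paired end) in 10 CT26 tumors, 6 from responders and 4 from non-responders. CT26 is a mouse colorectal carcinoma line, here grown subcutaneously in wild-type female BALB/c mice. Every tumor was untreated when it was collected: the bulk was resected and stored, a hydrogel loaded with poly(I:C), a synthetic double-stranded RNA, was then applied to the residual tumor, and the mouse was classed as a responder (complete regression) or a non-responder (no delay in growth). The comparison asks which transcripts differed in the tumor before treatment, and both groups share line, strain, site and the treatment that followed.

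Classical class I molecules show peptides from inside the cell to CD8 T cells and vary greatly between individuals. Nonclassical molecules have the same fold, vary little, and each serves a narrower ligand and receptor. Qa-1 (H2-T23) carries signal-sequence peptides to the CD94/NKG2 receptors of NK cells and CD8 T cells, H2-M3 carries formylated bacterial peptides, MR1 carries vitamin B metabolites to mucosal-associated invariant T cells, and CD1d carries lipids to natural killer T cells. Most need beta-2 microglobulin (B2m), and many H2 genes respond to interferon.

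All 10 members had a higher estimate in responders, but only Cd1d1 passed the test. Values are given as CPM, the estimated count of a gene scaled to the TMM-normalized size of its library. Bulk RNA cannot tell more cells of a type from more RNA per cell. Of the 10 members, 1 was called higher (edgeR adjusted p under 0.05) and 0 lower, where 8.06% of the 16041 genes tested were called in either direction and 4.71% were called higher. The median log2 fold change of the members was 0.64 (range 0.15 to 0.92), against -0.01 over all genes tested. At an unadjusted p under 0.05, 9 of the 10 members passed, against 29.1% of all genes. Every responder lay above every non-responder for 5 members, H2-Q4, H2-Q6, H2-T23, H2-T24 and Cd1d1, where 5.85% of all genes tested had this order. The DESeq2 Wald test called 6 members (H2-Q4, H2-Q6, H2-T23, H2-T24, H2-M3 and Cd1d1), with 17.6% of all genes called in that test, while limma voom called 1, H2-T24, with 6.75% of all genes. The members varied together across tumors, so these counts are not 10 separate observations.

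**Figure D1:**
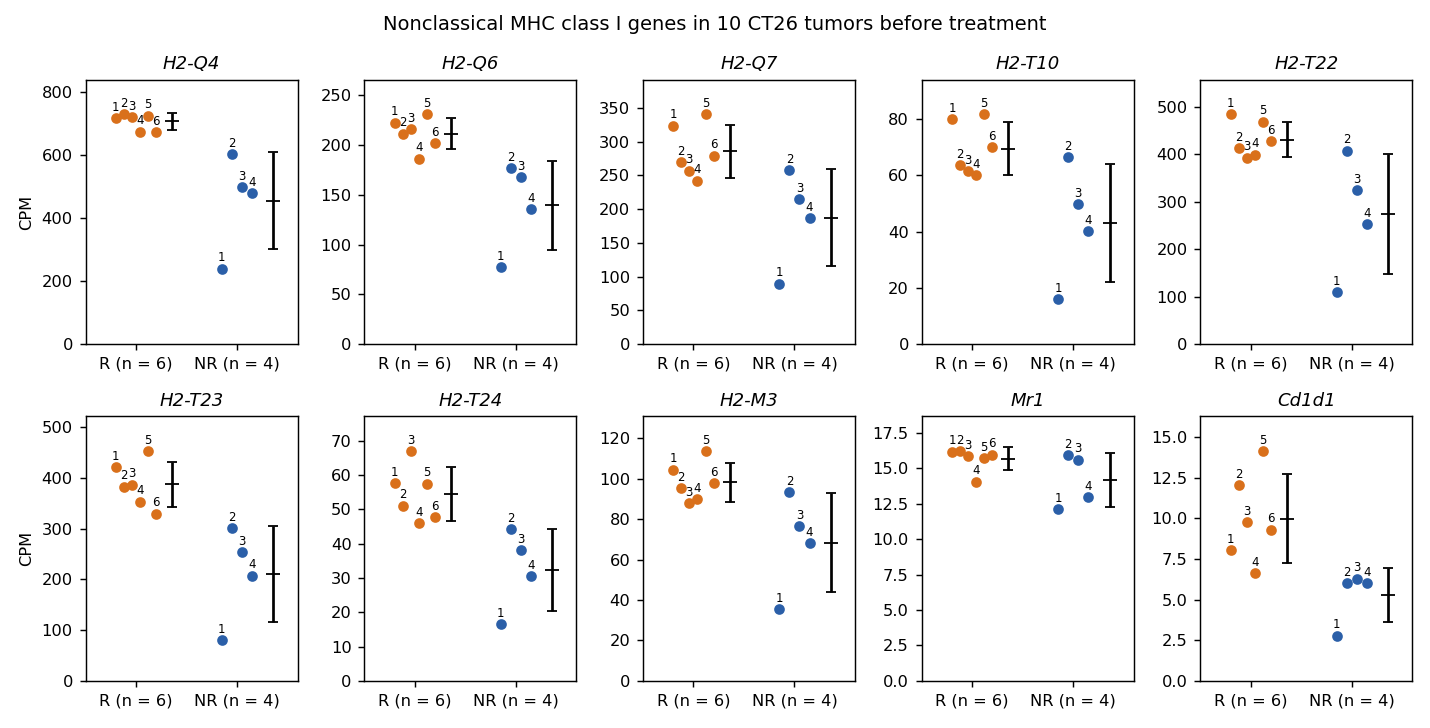
CPM of each member (vertical axis, from 0) in each of the 6 responders (R, orange) and 4 non-responders (NR, blue), with tumor numbers beside the points and mean ± SD in black. Non-responder 1 is the lowest of the 10 tumors in all 10 panels, and non-responder 2 reaches the responders in 5.

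Promoter sequences are shown as a description. The 250 bases before the start of transcription annotated by RefSeq (GRCm38.p6) were taken, which matched 7 members, H2-Q4, H2-Q6, H2-Q7, H2-T22, H2-T23, H2-M3 and Mr1. The promoters of H2-T10, H2-T24 and Cd1d1 were not analysed here. Each line reads 5′ to 3′ on the strand of the gene, with motif matches in capitals.
H2-Q4, chr17:35379367-35379616 (+ strand): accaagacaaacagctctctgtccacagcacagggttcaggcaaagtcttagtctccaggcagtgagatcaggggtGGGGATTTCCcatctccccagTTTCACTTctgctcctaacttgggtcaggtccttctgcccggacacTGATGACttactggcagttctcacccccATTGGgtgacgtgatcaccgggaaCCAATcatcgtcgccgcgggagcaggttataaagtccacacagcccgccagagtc
H2-Q6, chr17:35424600-35424849 (+ strand): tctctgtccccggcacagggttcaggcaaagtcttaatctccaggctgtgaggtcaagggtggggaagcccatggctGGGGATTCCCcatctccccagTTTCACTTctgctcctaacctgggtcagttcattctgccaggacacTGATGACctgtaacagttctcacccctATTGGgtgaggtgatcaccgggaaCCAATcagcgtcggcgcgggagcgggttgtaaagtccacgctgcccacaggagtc
H2-T22, chr17:36042743-36042992 (- strand): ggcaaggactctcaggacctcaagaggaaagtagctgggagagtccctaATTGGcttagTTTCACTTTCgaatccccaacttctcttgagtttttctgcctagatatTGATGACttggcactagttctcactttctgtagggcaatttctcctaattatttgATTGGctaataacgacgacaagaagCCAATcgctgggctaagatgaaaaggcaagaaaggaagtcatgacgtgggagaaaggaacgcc
H2-T23, chr17:36032702-36032951 (- strand): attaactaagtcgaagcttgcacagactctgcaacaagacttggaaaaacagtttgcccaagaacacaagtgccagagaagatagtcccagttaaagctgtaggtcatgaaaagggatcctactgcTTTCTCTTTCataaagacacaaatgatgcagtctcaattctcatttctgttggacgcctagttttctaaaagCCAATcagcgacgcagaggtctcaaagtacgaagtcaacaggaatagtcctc
H2-M3, chr17:37269984-37270233 (+ strand): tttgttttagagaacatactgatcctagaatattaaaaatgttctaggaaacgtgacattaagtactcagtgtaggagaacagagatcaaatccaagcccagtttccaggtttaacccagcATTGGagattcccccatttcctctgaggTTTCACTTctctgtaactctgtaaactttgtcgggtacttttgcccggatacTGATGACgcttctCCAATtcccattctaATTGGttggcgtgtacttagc
Mr1, chr1:155146815-155147064 (- strand): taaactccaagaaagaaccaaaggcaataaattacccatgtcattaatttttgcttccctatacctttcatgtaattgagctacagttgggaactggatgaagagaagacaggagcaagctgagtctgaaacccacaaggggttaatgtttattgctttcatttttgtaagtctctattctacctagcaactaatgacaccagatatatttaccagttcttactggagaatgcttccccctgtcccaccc
The motifs were written down after these sequences had been read, and both strands were searched. The shares over all promoters are therefore a description and no test of the members. The H2-Q6 and H2-Q7 promoters were 97.6% identical (205 of 210 aligned bases), so their matches are not separate observations. The class I kappa B element, bound by NF-kappa B proteins, was found as GGGGATTTCC in H2-Q4 and as GGGGATTCCC in H2-Q6 and H2-Q7, 3 of the 7, and in 0.24% of 32851 promoters. The class I form of the interferon-stimulated response element (ISRE, AAGTGAAA) was found in 5 (H2-Q4, H2-Q6, H2-Q7, H2-T22, H2-M3), and in 1.36% of promoters. A longer ISRE core was found as TTTCACTTTC in H2-T22, where it overlaps the former, and as TTTCTCTTTC in H2-T23, and in 2.98% of promoters. The X2 box (TGATGAC), part of the enhanceosome that recruits NLRC5, was found in the same 5 members as the class I ISRE, and in 2.69% of promoters. The Y box (CCAAT) was found in 6 of 7, and in 33.8% of promoters. Mr1 held none of these letters in its window, and H2-T23 held only the ISRE core and a Y box. The H2-T23 window is shifted, because the GENCODE gene starts at 36032855 on the - strand, inside this window. The bases before that start were therefore searched only in part. The H2-T22 and H2-M3 windows reach a few bases into their GENCODE genes. The same search of B2m found an ISRE core and a Y box. In the classical gene H2-K1 it found the kappa B element, the class I ISRE and a Y box, but no X2 box. A match is an exact stretch of letters and was not tested as a site. A missing match does not show that the element is absent. The H2-K1 window, for example, held TGTTGAC, which is close to the X2 letters. Whether motifs go with the profiles across tumors was not tested.

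The H2-Q genes lie on chromosome 17 (GRCm38). H2-Q4 (ENSMUSG00000035929, chr17:35379617-35385290) was at 674 CPM in the lowest responder, 719 at the median and 730.2 in the highest, and at 240.1, 604, 500 and 480.5 CPM in non-responders 1 to 4. All 6 responders sat in a narrow band above all 4 non-responders, and non-responder 1 was far below the other three. The means were 707 ± 25.7 CPM (SD, n = 6) and 456 ± 154 CPM (SD, n = 4), which gave a log2 fold change of 0.63 ± 0.19 (SE, with an adjusted p = 0.0611 by edgeR) and missed the threshold.

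H2-Q6 and H2-Q7 encode Qa-2 molecules, which attach to the membrane by a lipid anchor. H2-Q6 (ENSMUSG00000073409, chr17:35424850-35430055) was at 186 to 231 CPM in responders (median 213) and at 77.5, 176, 168 and 135 CPM in non-responders 1 to 4. The groups did not overlap, with a log2 fold change of 0.60 ± 0.18 (SE, with an adjusted p = 0.0619 by edgeR). H2-Q7 (ENSMUSG00000060550, chr17:35439155-35443773) was at 242 to 340.4 CPM in responders (median 274) and at 89.6, 258, 215 and 187 CPM in non-responders 1 to 4. Here non-responder 2 lay above 2 responders, and the log2 fold change was 0.61 ± 0.23 (SE, with an adjusted p = 0.109 by edgeR).

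These 2 genes are hard to tell apart by sequence. Their coding sequences were 95.4% identical, with 45 of 978 aligned bases different. Coding bases 76 to 135, the 60-base window in which they differ most, are shown with the differing bases in capitals.
H2-Q6: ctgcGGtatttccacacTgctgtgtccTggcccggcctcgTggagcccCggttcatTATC
H2-Q7: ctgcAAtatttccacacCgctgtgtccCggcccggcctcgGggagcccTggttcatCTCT
Summed into 1 feature, H2-Q6 and H2-Q7 gave a log2 fold change of 0.61 ± 0.21 (SE, with an adjusted p = 0.0862 by edgeR). The sum over all 8 H2-Q rows of the table gave 0.58 ± 0.20 (SE, with an adjusted p = 0.0823 by edgeR). Both sums missed the threshold, at estimates close to those of the single rows.

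The H2-T genes lie further along chromosome 17. H2-T23 (ENSMUSG00000067212, chr17:36029773-36032855), which encodes Qa-1, was at 330 CPM in the lowest responder, 385 at the median and 453 in the highest, and at 79.6, 301, 253 and 208 CPM in non-responders 1 to 4. Every responder exceeded every non-responder, and non-responder 1 held 20.6% of the responder mean. The means were 388 ± 44.6 CPM (SD, n = 6) and 210.4 ± 95.2 CPM (SD, n = 4), which gave a log2 fold change of 0.88 ± 0.28 (SE, with an adjusted p = 0.0684 by edgeR).

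H2-T24 (ENSMUSG00000053835, chr17:36005695-36020560), a class Ib gene of the same region, was at 46.0 to 67.1 CPM in responders (median 54.3) and at 16.6, 44.2, 38.1 and 30.6 CPM in non-responders 1 to 4. The groups did not overlap, although responder 4 and non-responder 2 were close, and the log2 fold change was 0.75 ± 0.22 (SE, with an adjusted p = 0.0548 by edgeR).

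H2-T22 and H2-T10 encode ligands of gamma delta T cells that carry no peptide. H2-T22 (ENSMUSG00000056116, chr17:36037128-36042747) was at 393 to 484 CPM in responders (median 420) and at 109.5, 407, 324 and 253 CPM in non-responders 1 to 4, a log2 fold change of 0.66 ± 0.27 (SE, with an adjusted p = 0.132 by edgeR). H2-T10 (ENSMUSG00000079491, chr17:36115876-36121465), annotated as a polymorphic pseudogene in the reference strain, was at 60.1 to 81.7 CPM in responders (median 66.9) and at 16.1, 66.5, 49.7 and 40.2 CPM in non-responders 1 to 4, a log2 fold change of 0.69 ± 0.28 (SE, with an adjusted p = 0.134 by edgeR). In both, non-responder 2 lay among the responders. Their coding sequences were 96.9% identical (35 of 1134 aligned bases different), and coding bases 665 to 724 are shown with differing bases in capitals.
H2-T10: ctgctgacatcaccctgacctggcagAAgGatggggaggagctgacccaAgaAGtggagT
H2-T22: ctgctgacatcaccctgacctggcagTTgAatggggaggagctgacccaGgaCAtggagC
Summed, they gave a log2 fold change of 0.66 ± 0.27 (SE, with an adjusted p = 0.133 by edgeR).

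**Figure D2:**
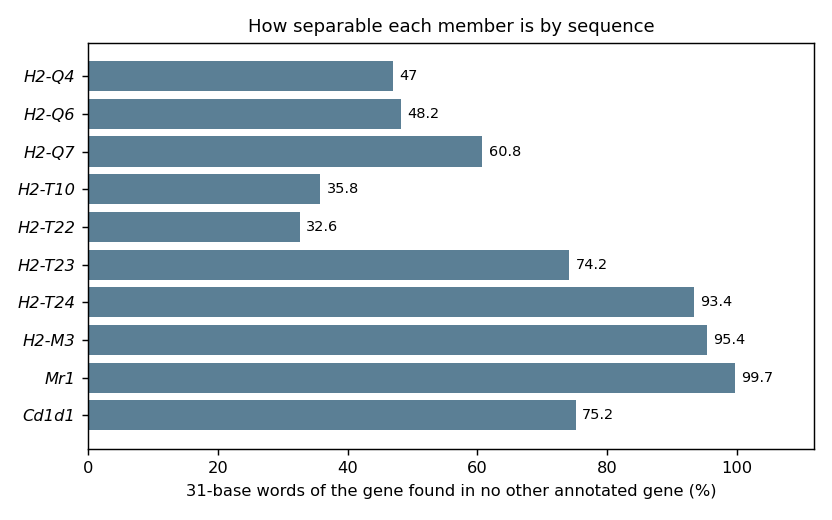
Share of the distinct 31-base words of each member's annotated transcripts that occur in no other annotated gene (horizontal axis, percent). H2-T22 (32.6%) and H2-T10 (35.8%) are the least separable and Mr1 (99.7%) the most.

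How far a row can be read as 1 gene differs between members. Of the 31-base words in the transcripts of a member, 32.6% to 60.8% occurred in no other gene for H2-T22, H2-T10, H2-Q4, H2-Q6 and H2-Q7. The share was 74.2% for H2-T23, 75.2% for Cd1d1 (which shares 24.2% with Cd1d2), 93.4% for H2-T24, 95.4% for H2-M3 and 99.7% for Mr1. The reference comes from another strain than BALB/c, and how this moved the counts of polymorphic H2 rows was not tested.

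H2-M3 (ENSMUSG00000016206, chr17:37270220-37274484) was at 88.1 to 114 CPM in responders (median 96.5) and at 35.4, 93.3, 76.7 and 68.0 CPM in non-responders 1 to 4. Non-responder 2 lay above 2 responders, and the log2 fold change of 0.52 ± 0.20 (SE, with an adjusted p = 0.116 by edgeR) did not pass.

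Mr1 and Cd1d1 lie outside the MHC. Mr1 (ENSMUSG00000026471, chr1:155127277-155146814) was at 14.1 CPM in the lowest responder, 15.9 at the median and 16.2 in the highest, and at 12.2, 15.9, 15.6 and 13.0 CPM in non-responders 1 to 4. The groups overlapped, with non-responders 2 and 3 among the responders. The log2 fold change of 0.15 ± 0.09 (SE, with an adjusted p = 0.279 by edgeR) was the smallest of the 10.

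Cd1d1 (ENSMUSG00000028076, chr3:86995834-86999441) rose in responders. It was at 6.63 CPM in the lowest responder, 9.53 at the median and 14.2 in the highest, and at 2.79, 6.005, 6.29 and 6.0 CPM in non-responders 1 to 4. No values overlapped, but responder 4 lay just above non-responder 3, and the 6 responders spread more widely than for any other member (coefficient of variation 27.3%). The means were 9.99 ± 2.73 CPM (SD, n = 6) and 5.27 ± 1.66 CPM (SD, n = 4), which gave a log2 fold change of 0.92 ± 0.25 (SE, with an adjusted p = 0.0482 by edgeR). The call rests on 69 to 506 estimated counts per tumor and on single tumors: it was kept without responder 4 and lost without any one of the other 9 tumors, with adjusted p from 0.0520 to 0.0985.

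Per kilobase of annotated exon, levels in responders ran from 272 ± 9.89 CPM per kb for H2-Q4 to 2.62 ± 0.136 for Mr1 (SD, n = 6). H2-T23 (134 ± 15.4) and H2-T22 (126 ± 11.02) came next, followed by H2-Q6 (101 ± 7.57). H2-M3 (68.3 ± 6.67) and H2-Q7 (66.9 ± 9.05) were above H2-T24 (25.0 ± 3.58), H2-T10 (20.3 ± 2.76) and Cd1d1 (3.89 ± 1.06). Differences between members in this order were not tested. The order also depends on the annotated length, which joins the exons of all transcripts. It was 4265 bases for H2-Q7 and 2085 for H2-Q6, and before this scaling H2-Q7 was the higher (285 against 211 CPM in responders). The members summed per kilobase came to 75.6% ± 5.35 of H2-K1 plus H2-D1 (SD, n = 6 responders) against 67.9% ± 6.53 (SD, n = 4 non-responders), which was not tested.

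The 4 non-responders were not alike. Non-responder 1 was the lowest of all tumors for 10 of 10 members, at 20.6% to 77.6% of the responder mean, and non-responder 2 was the highest of its group for 9, at 60.1% to 102% of the responder mean. The coefficient of variation was larger in non-responders for all 10 members (13.3% to 48.9%, against 3.63% to 27.3% in responders). Without non-responder 2, edgeR called 8 members, all but Mr1 and Cd1d1, and 11.7% of all genes tested in that fit. Without non-responder 1, it called 0 members, although 9 had an unadjusted p under 0.05, and 0.0982% of all genes. That tumor also set much of the size of the estimates. Without it the log2 fold change was 0.32 for H2-M3, 0.40 for H2-T22, 0.42 for H2-T10, 0.38 for H2-Q7 and 0.09 for Mr1, each lower by more than 1.5 times, and between 0.41 and 0.72 for the other 5 members.

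**Figure D3:**
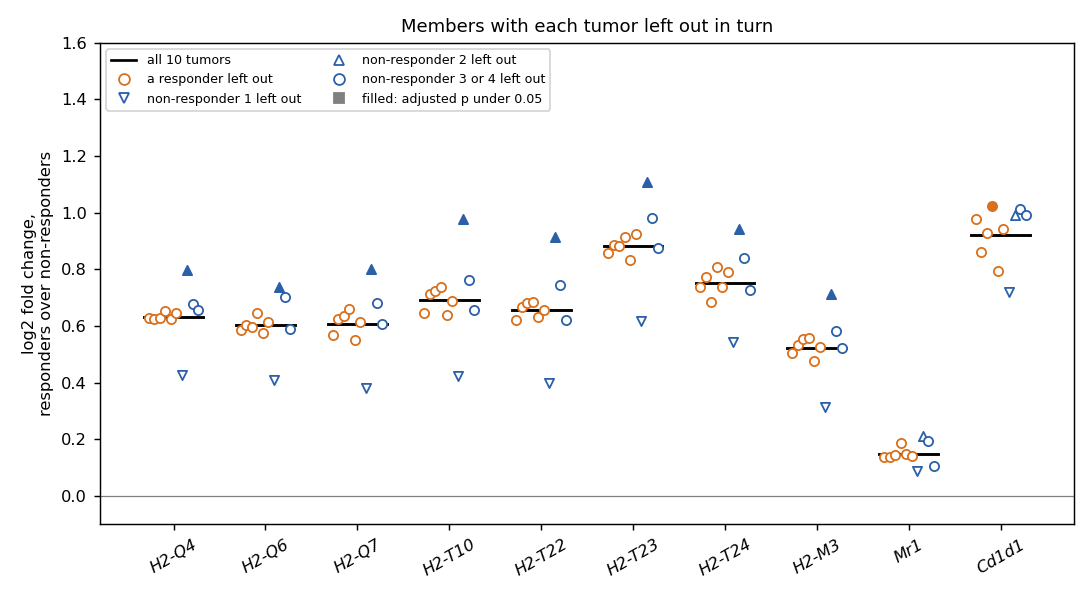
Log2 fold change of each member (vertical axis, responders over non-responders) with all 10 tumors (black line) and with each tumor left out in turn (points, filled where the edgeR adjusted p was under 0.05). Estimates drop most without non-responder 1, and 8 members pass without non-responder 2.

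The classical heavy chains and the light chain had estimates close to those of most H2 members, and 0 of these 3 genes were called. B2m, the shared light chain, was at 2057 ± 217 CPM in responders and 1514 ± 372 in non-responders (SD, n = 6 and 4; log2 fold change 0.44, edgeR adjusted p = 0.0804). The classical heavy chains H2-D1 and H2-K1 had log2 fold changes of 0.57 (edgeR adjusted p = 0.0797) and 0.50 (edgeR adjusted p = 0.119). Of 13 genes of peptide supply and loading, 0 were called and 10 had an unadjusted p under 0.05. The smallest p belonged to Tapbp (tapasin, log2 fold change 0.64, edgeR adjusted p = 0.0517) and Tap2 (a peptide transporter subunit, 0.65, edgeR adjusted p = 0.0583).

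Of 14 genes of class I transcription, 0 were called higher and 1 lower. That gene was Rfxank, a subunit of the RFX complex, which fell by 0.24 on the log2 scale (edgeR adjusted p = 0.0472). Nlrc5, the class I transactivator, was at 332 to 395 CPM in responders and at 93.9, 352, 290 and 205 CPM in non-responders 1 to 4, the same order of non-responders as in most members (log2 fold change 0.59, edgeR adjusted p = 0.176).

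Of 10 genes that load lipid onto CD1d, 3 were called higher and 1 lower. Psap, the precursor of the saposins that lift lipids into CD1d, rose by a log2 fold change of 0.58 (edgeR adjusted p = 0.0429) and Ctss, a lysosomal protease, by 0.79 (edgeR adjusted p = 0.0401). Ctsl, another lysosomal protease, fell by 0.40 on the log2 scale (edgeR adjusted p = 0.0222). Macrophages are rich in lysosomes, and 5 of 7 macrophage markers were called higher, the direction of Psap and Ctss and not of Ctsl. Their part in these values was not tested.

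On the receptor side, 6 of 15 tested rows were called higher and 0 lower. Klrc1 (NKG2A), which with CD94 forms the inhibitory receptor for Qa-1, rose from 3.62 ± 2.28 CPM in non-responders to 11.7 ± 4.603 in responders (SD, n = 4 and 6; log2 fold change 1.70 ± 0.43 (SE), adjusted p = 0.0420 by edgeR). Klrd1 (CD94) was at 5.25 ± 2.23 and 13.0 ± 5.66 CPM (log2 fold change 1.31 ± 0.37 (SE), adjusted p = 0.0517 by edgeR) and missed the threshold. Both overlapped between the groups, with responder 4 the lowest responder. Klrk1 (NKG2D, log2 fold change 1.20, edgeR adjusted p = 0.0448), Pirb (0.64, edgeR adjusted p = 0.0297) and 1 of the 2 rows named Lilrb4a (ENSMUSG00000112148, 0.49, edgeR adjusted p = 0.0425) also rose, the last 2 being inhibitory receptors of myeloid cells.

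**Figure D4:**
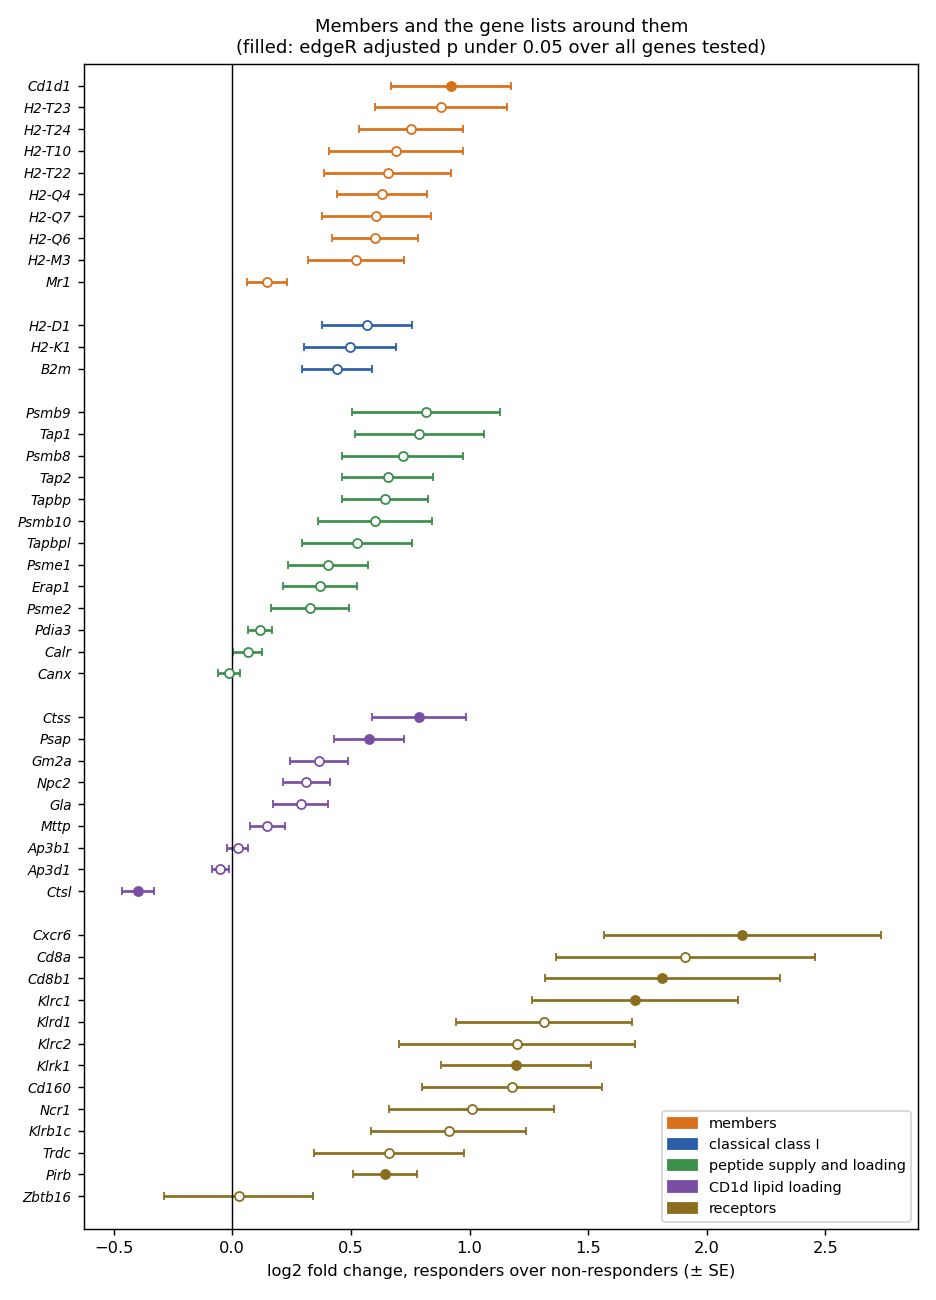
Log2 fold change (responders over non-responders, ± SE) of the 10 members and of the genes tested in 4 lists around them, without the 2 rows named Lilrb4a and 1 lipid loading gene. Filled points had an edgeR adjusted p under 0.05: Cd1d1 among members, 0 of 3 classical and 0 of 13 peptide supply genes, and several lipid loading and receptor genes.

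A list of 36 other class I-like genes had 29 in the table, of which 18 passed the filter on low counts. Of the 18 tested, edgeR called 0 in either direction and 9 had an unadjusted p under 0.05. The smallest p belonged to H2-Bl (log2 fold change 0.52, edgeR adjusted p = 0.0721) and H2-T3 (0.87, edgeR adjusted p = 0.0944). Over all 6 lists 11 genes were called, where 8.06% of all genes tested were called. This count rested on single tumors. It was 0 without responder 3, non-responder 1 or non-responder 4, where 17, 16 and 0 of all genes were called, against 1293 in the main fit. It was 1 without responder 2, 2 without responder 1, responder 5 or non-responder 3, and 4 without responder 6. It was 13 without responder 4 and 24 without non-responder 2.

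Markers of some leukocytes were higher in responders, and others were not called. Ptprc (CD45), carried by leukocytes, was at 326 to 499 CPM in responders and 181 to 307 in non-responders, without overlap. Summed macrophage markers were at 2569 to 3896 CPM against 1597 to 2341 (5 of 7 called higher), NK cell markers at 52.5 to 105 against 14.3 to 45.1 (2 of 5), and cytotoxic lymphocyte markers at 145 to 329 against 31.2 to 149 (2 of 7). Also called higher were 1 of 5 dendritic cell markers and 1 of 4 inflammatory monocyte markers. Of the T cell (7), B cell (4) and neutrophil (4) markers tested, edgeR called 0, with 6, 2 and 1 at an unadjusted p under 0.05. With Ptprc as a covariate, 0 members had an unadjusted p under 0.05, and the estimates lay between -0.16 and 0.11 (SE 0.11 to 0.26). The same model called 0 of all genes tested, with 845 at an unadjusted p under 0.05. Since Ptprc separated the groups, leukocyte content and response cannot be told apart in these 10 tumors.

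Other tissue was present as well. Skeletal muscle markers summed to 348 to 1122 CPM in responders and 308 to 402 in non-responders (2 of 5 called higher), and adipocyte markers to 15.7 to 52.1 against 8.54 to 19.2 (0 of 4 called). Fibroblast markers summed to 4079 to 4766 against 3551 to 5835 CPM, with 2 of 6 estimates higher. Of these, 0 were called higher and 1 lower (Pdgfrb, log2 fold change -0.58, edgeR adjusted p = 0.0266). Endothelial markers summed to 86.1 to 142 against 68.9 to 104 CPM (0 of 5 called). Their part in the results was not tested. Of 9 colon epithelium markers, 5 (Epcam, Krt8, Krt18, Cdx1 and Vil1) did not pass the filter on low counts, and the 9 summed to 9.51 to 15.4 CPM, so these markers gave little sign of the labelled epithelial origin.

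Across the 10 tumors the members had like profiles. Pearson's r of log2 CPM over the 45 pairs of members ran from 0.774 to 0.998 with a median of 0.97, and within the 6 responders alone from 0.09 to 0.98 with a median of 0.62. These are descriptions over tumors that share group, and paralogs also share reads.

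The genes most like each member were found over all genes tested. For H2-T23 they were Idnk (r = 0.998), Tap1 (0.997) and Tap2 (0.996), and for H2-Q4 they were Tap1 (0.992), Psmb8 (0.992) and Tap2 (0.990). For H2-Q6 they were Gbp10, Eif4e3 and Idnk (0.994 to 0.997), for H2-T24 Ifi44, Gm12216 and Irf7 (0.990 to 0.996), and for H2-T22 Erap1, H2-Q5 and Nlrc5 (0.996 to 0.997). H2-Q7 was most like H2-K1, H2-Q10 and H2-D1, while H2-T10 and H2-M3 were both most like H2-Q5, H2-Q10 and Il15ra (0.994 to 0.999). For all of these H2 members the 2 tumors farthest from the median were non-responders 1 and 4. Without them r was 0.917 to 0.993. Within the responders it was 0.551 for H2-Q4 with Psmb8 and 0.819 to 0.996 for the other pairs.

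Mr1 and Cd1d1 had other neighbors. Mr1 was most like Atp8a2 (r = 0.98), Ikbkg (0.96) and Tbc1d23 (0.96). Without the 2 tumors farthest from the median r fell to between 0.72 and 0.85, and within the responders it was 0.75 to 0.90. Cd1d1 was most like Lmod3, a muscle gene (0.99), Plekho1 (0.99) and Tec (0.98), at 0.95 to 0.97 without 2 tumors and 0.96 to 0.97 within the responders.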

How the data were processed

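PolyA RNA of 10 tumors was sequenced, with 23374649 to 38042544 estimated counts per tumor. Per the labels and the study's methods, the authors estimated transcript abundance with Kallisto and summed transcripts to genes (GRCm38). The deposited values are estimated counts (expected counts), not scaled to depth, and 98% of the members' values were fractional. Annotation release and strand setting are not given in the sources used here. Groups came from the response label, tumors are numbered in accession order, and the numbers pair nothing. Each tumor is 1 mouse, and no pair among 45 was as close as 1 library deposited again would be.

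Counts were rounded and fitted in R 4.3.3 with edgeR 4.0.16 (filterByExpr with minimum count 10, TMM, two-sided quasi-likelihood test, Benjamini-Hochberg over 16041 genes, threshold 0.05). The SE is the log2 fold change over the square root of F. The test was checked on simulated counts. DESeq2 1.42.0 and limma 3.58.1 were alternatives. Gene coordinates and transcript sequences came from GENCODE (GRCm38), promoters from RefSeq. Named genes were the members, 6 fixed partners (B2m, H2-K1, H2-D1, Nlrc5, Klrd1, Klrc1), from each list the called genes (at most the 4 with the smallest p) or else the 2 with the smallest p, and the 3 genes most like each member. Values of 1 called lipid loading gene are not reported here. Members and lists were chosen with earlier results of these data known.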

Additional observations from a re-analysis of the deposited data

Results flagged for a closer look

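Mr1 in responder 4 stood apart from its group. It was at 14.1 CPM, and its gap to the nearest responder was 0.766 of the range of the 6 responders. Cd1d1 in non-responder 1, at 2.79 CPM, lay 0.918 of the range of the 4 non-responders below the next. With 20 groups examined, about 1 such value is expected by chance. Without responder 4 the log2 fold change of Mr1 was 0.18 (edgeR adjusted p = 0.184), and without non-responder 1 that of Cd1d1 was 0.72 (edgeR adjusted p = 0.0985).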

How the results depend on the processing

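The numbers of members (1), genes (1293) and pathway genes (11) called stayed within 1.5 times without a filter on low counts, with a CPM filter, with other size factors, with library totals only and with limma voom. With limma voom the member called was H2-T24 (adjusted p = 0.0457), not Cd1d1 (0.0598). The DESeq2 Wald test called 6 members (H2-Q4, H2-Q6, H2-T23, H2-T24, H2-M3 and Cd1d1), 2602 genes and 29 pathway genes. An adjusted p under 0.1 gave 5 members and 2999 genes. With Ptprc as a covariate 0 members were called, and 6 estimates turned: H2-Q7 to -0.13, H2-T10 to -0.16, H2-T22 to -0.12, H2-T23 to -0.0036, H2-M3 to -0.11 and Mr1 to -0.068 (adjusted p from 0.955 to 0.999). The cause was not tested. Leaving out 1 tumor gave 0 to 8 members, 0 to 1897 genes and 0 to 24 pathway genes called by edgeR. The lowest count of genes, 0 with 4106 at an unadjusted p under 0.05, came without non-responder 4, with 16 without non-responder 1 and 17 without responder 3. Of 183 member estimates under alternatives, 152 kept direction and side of the threshold, 14 passed it newly, 11 lost it and 6 turned. All 11 losses were of Cd1d1, the only member called in the main fit, and the 152 include uncalled members that stayed uncalled. An estimate for summed rows was entered for each member in the sum, so the 183 are not separate. No paired analysis was possible because tumor numbers are in accession order and the labels carry none.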
